A study of Mus musculus with 20 samples.

Results

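The 33 genes described here are genes of the meninges, of fibroblasts and of the fibrous extracellular matrix, chosen by name: Col1a1, Col1a2, Col3a1, Col5a1, Col6a1, Col6a2, Dcn, Lum, Fmod, Ogn, Bgn, Islr, Fn1, Emilin1, Mgp, Postn, Aebp1, Igf2, Ptgds, Serping1, Nupr1, Slc6a13, Slc22a6, Slc13a4, Slc13a3, Slc47a1, Slc6a20a, Aldh1a2, Crabp2, Foxc1, Foxc2, Foxd1 and Thbd. They were listed with earlier results of these data known, so their counts against all genes are not an independent test. All 33 were found among the 19214 genes of the count tables, and 33 of 33 passed the filter on low counts that left 14884 genes for testing. The tissue dissected was BNST, the bed nucleus of the stria terminalis, a small part of the mouse forebrain that lies between amygdala and hypothalamus. There were 4 groups with 5 libraries each: susceptible males, control males, susceptible females and control females. Susceptible mice belong to an anxiety model made by chronic restraint, that is, by keeping an animal repeatedly in a tight space, and control mice carry that label alone. The sources used here do not state strain, age, the length of restraint or how susceptibility was scored. Since no label ties each library to its own animal, p-values reflect no more than how these libraries vary, and that variation may be technical.

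The meninges are the layered membranes that enclose the brain, and their fibroblasts secrete collagen fibrils, the proteoglycans that space the fibrils, and glycoproteins that anchor cells to them. Meningeal fibroblasts also line larger vessels and the stroma of the choroid plexus, make retinoic acid, and carry transporters that clear solutes from the cerebrospinal fluid. Neurons and most glia of the brain tissue proper make little fibrillar collagen, so in a dissected region these transcripts are known mainly as signs of meninges, vessel walls and plexus stroma. The 33 genes were ordered by role: 6 collagens, 6 leucine-rich repeat matrix proteins, 5 other matrix proteins, 4 genes of secreted factors and a stress response, 6 solute carriers, 2 genes of retinoid handling, 3 forkhead factors and 1 endothelial receptor.

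Most of these genes were weakly expressed. In RPKM, reads scaled to exon length and library size, the median of the 33 gene means was 1.87, against 5.71 for all genes tested. Ptgds, prostaglandin D2 synthase, had a mean of 163 RPKM and Col6a1, a chain of collagen VI, a mean of 35.0 RPKM, and these 2 of 33 alone stood above the median of all genes. The lowest mean was that of the transcription factor gene Foxc2 at 0.198 RPKM, with 2 to 20 counts per library. Of 35 other listed markers of meninges and fibroblasts, 27 passed the count filter, at widely differing levels. In counts scaled to library size (CPM), Foxp1 averaged 125, Pdgfra 82.7 and Cxcl12 38.4, while Cdh1 averaged 0.863 and Mfap4 0.643. Twist1, Six2, Mfap5, Dpep1 and Tagln, of the same list, were at 0 in at least 1 of the 20 libraries. In bulk RNA, fewer cells of a type and less RNA per cell cannot be told apart, and this holds for every gene below.

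Libraries of 1 group differed widely in RNA of neighbouring structures, and this touches several of the 33 genes. Total counts ranged from 14637636 to 17862840 per library. Ttr, the transthyretin gene that marks choroid plexus epithelium, exceeded 100 CPM (counts scaled to library size) in 7 libraries, which were susceptible males 2 and 5, control male 5, susceptible females 1 and 3, and control females 2 and 3. Pmch, which encodes a neuropeptide of lateral hypothalamic neurons, exceeded 1 CPM in 5 libraries, namely susceptible male 5, susceptible female 4 and control females 1, 2 and 3. Control male 5 had 1.25 CPM summed over 6 red cell genes, against 31.1 to 130 CPM in the other libraries. The counts over the 33 genes are given below also without the Ttr-rich and Pmch-rich libraries, as are some values of single genes.

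**Figure D1:**
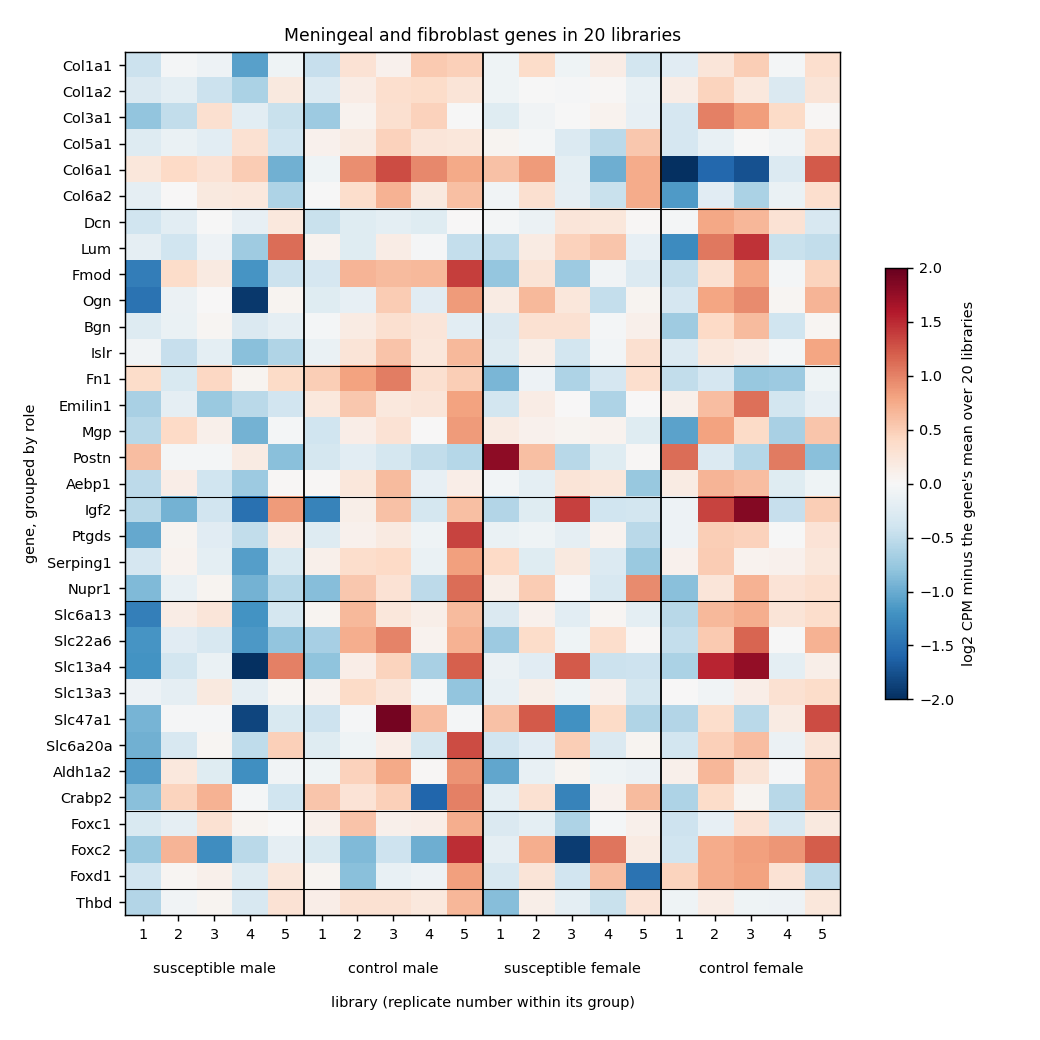
Log2 CPM of each of the 33 genes in each of the 20 libraries, minus the gene's mean over all libraries, with genes grouped by role and libraries by group (red is above the gene's mean, blue below). Control male 5 stands out as a red column and susceptible males 1 and 4 as blue ones, and Col6a1 shows the widest range, from 15.6 CPM in control female 1 to 305 CPM in control male 3.

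In males, the comparison of susceptible with control mice asked which transcripts differ between the restraint model and its controls. No group is labelled as restrained but not susceptible. In every comparison called a stress effect, restraint and susceptibility therefore cannot be told apart. Estimates were below 0 for 30 of the 33 genes, with a median log2 fold change of -0.44, while 52.5% of all genes tested had an estimate below 0 and 47.5% one above 0, and their median was -0.01. None of the 33 had an adjusted p under 0.05 (edgeR, lowest 0.405), and neither did any other gene (0% of 14884). At an unadjusted p under 0.05, 13 of the 33 were lower and 0 higher, and over all genes tested 9.67% were below that p, 5.03% lower and 4.64% higher. These 13 were Col1a1, Col1a2, Fmod, Islr, Fn1, Emilin1, Ptgds, Serping1, Slc6a13, Slc22a6, Slc47a1, Aldh1a2 and Thbd, and they came from 7 of the 8 roles, the forkhead factors being the exception. With DESeq2, 0 of the 33 were called. With limma's voom and sample weights the number was 10, all lower, where 1.85% of all genes were called lower, and it was 0 after a trend on GC content and length had been taken out. The count of 13 became 8 without susceptible male 4, where 3.73% of all genes were lower, and 9 without susceptible male 1, where 4.62% were. It lay between 10 and 16 without each of the other male libraries. It came to 11 with the libraries over 100 CPM of Ttr left out, against 2.77% of all genes, and to 13 with those over 1 CPM of Pmch left out, against 2.86%.

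In females, the same comparison gave estimates below 0 for 25 of the 33 genes, with a median of -0.25, against 48.4% and a median of 0.01 for all genes tested. None of the 33 passed (edgeR, smallest adjusted p = 0.774; 0% of all genes), nor did any with DESeq2 or with voom. At an unadjusted p under 0.05, 2 were lower, Col3a1 and Aldh1a2, and 0 higher, against 5.85% of all genes, 2.73% lower and 3.12% higher. With libraries over 100 CPM of Ttr left out, which kept 3 susceptible and 3 control females, 18 of 33 estimates were below 0 and the median was -0.02. With libraries over 1 CPM of Pmch left out, which kept 4 susceptible and 2 control females, it was -0.12. The count of 2 was 0 without control female 2, control female 3, susceptible female 1 or susceptible female 5, was 1 without susceptible female 2 or susceptible female 4, and was 4 without control female 1.

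**Figure D2:**
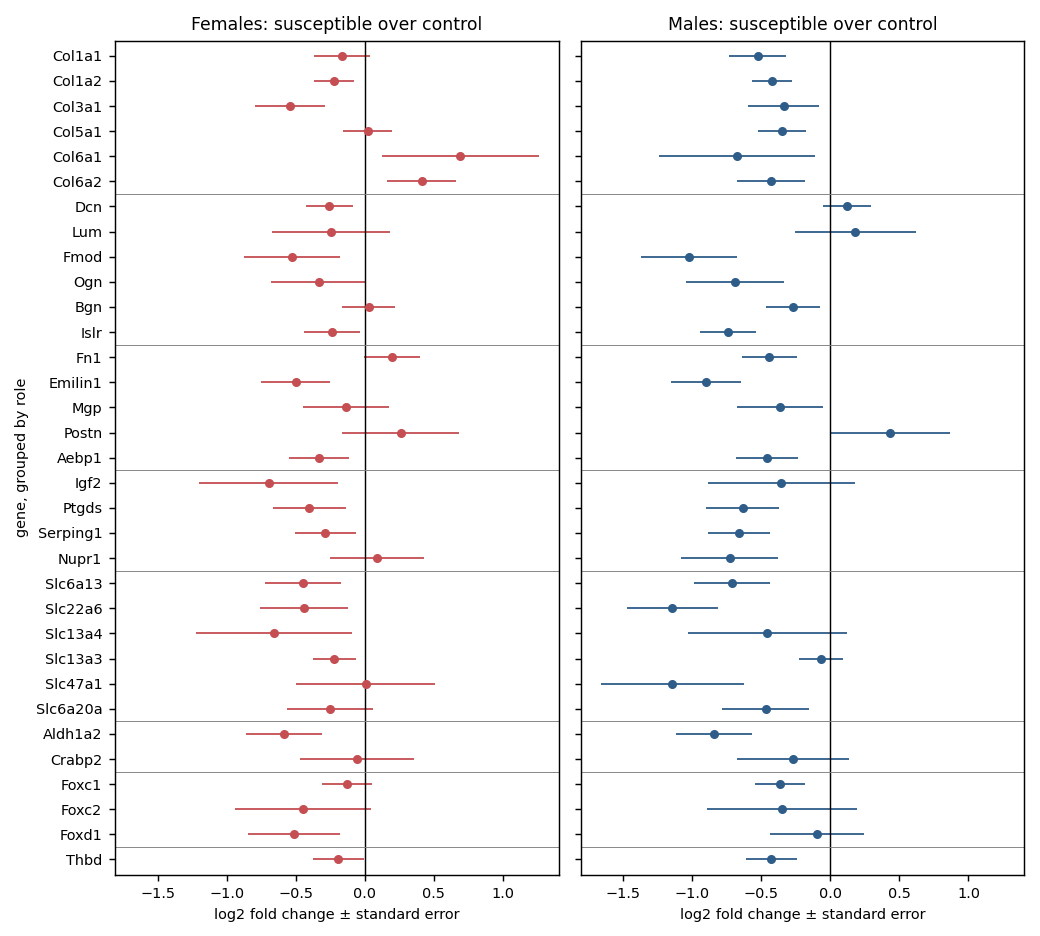
Log2 fold change of susceptible over control mice for each of the 33 genes, in females (left) and males (right), as points with standard errors from the edgeR fit over all 20 libraries. In males 30 of 33 points lie below 0 and in females 25 of 33.

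Averaged over the sexes, 31 of 33 estimates were below 0 (median -0.35), against 51.1% of all genes below 0 and 48.9% above. None of the 33 passed (edgeR, smallest adjusted p = 0.576; 0% of all genes), nor with DESeq2 or voom. At an unadjusted p under 0.05, 13 were lower, against 7.71% of all genes, 3.49% lower and 4.22% higher. That count was 6 with the Ttr-rich libraries left out, against 2.13% of all genes lower, and 8 with the Pmch-rich ones left out, against 1.16%. The female minus the male effect was above 0 for 24 of 33 genes (52.4% of all genes above and 47.6% below), with a median of 0.24. None of the 33 passed (edgeR, smallest adjusted p = 0.587; 0% of all genes), nor with DESeq2 or voom. At an unadjusted p under 0.05 there were 2, Col6a2 and Fn1, both above 0, against 8.26% of all genes, 4.64% above and 3.62% below. With the Ttr-rich libraries left out the median was 0.61, 4 of 33 estimates were below 0 in place of 9, and 5 of 33 were above 0 at an unadjusted p under 0.05, against 1.75% of all genes. With the Pmch-rich ones left out the median was 0.40, with 2 above 0 at that p against 2.05% of all genes, and with 1 library left out it lay between 0.14 and 0.35. The count of 2 lay between 0 and 5 with 1 library left out, at 5 without control female 5 (8.57% of all genes above), 4 without control male 1, and 0 without control female 3, control male 3 or susceptible female 5. No difference between the sexes in the stress effect passed for a single gene of the 33, with all libraries in or in any alternative run.

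The collagens were described first. Col1a1 and Col1a2 encode the chains of fibrillar collagen I, Col3a1 that of collagen III, Col5a1 a chain of collagen V, which sets fibril diameter, and Col6a1 and Col6a2 chains of collagen VI, which forms beaded microfibrils around cells. In males, all 6 had estimates below 0, between -0.67 and -0.34. Col1a2 had 15.1, 16.1, 13.6, 11.9 and 21.1 CPM in susceptible males 1 to 5, against 15.1, 20.3, 23.1, 23.6 and 21.9 CPM in control males 1 to 5 (log2 fold change -0.42 ± 0.15 standard error, unadjusted p = 0.0096, edgeR adjusted p = 0.424). Susceptible male 5 and control male 1 made the groups overlap. In females, Col3a1 had 2.64, 2.98, 3.13, 3.28 and 2.81 CPM in susceptible females 1 to 5, against 2.49, 6.28, 5.57, 4.07 and 3.20 CPM in control females 1 to 5 (-0.54 ± 0.25, edgeR adjusted p = 0.774). The high control values came from control females 2 and 3, which were also the female controls rich in Ttr. With the Ttr-rich libraries left out the estimate was -0.10, and without control female 2 alone it was -0.36. In males, Col3a1 averaged 2.60 ± 0.802 CPM in susceptible and 3.30 ± 0.919 CPM in control mice (SD, n = 5 each).

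Col6a1 was the most variable of the 33 genes, with a highest value 19.5 times its lowest. It had 143, 161, 150, 174 and 63.0 CPM in susceptible males, and 116, 235, 305, 240 and 208 CPM in control males. It had 185, 222, 107, 62.5 and 205 CPM in susceptible females, and 15.6, 41.3, 36.6, 102 and 288 CPM in control females. Its estimates had opposite signs in the sexes, 0.69 ± 0.57 in females and -0.67 ± 0.56 in males (edgeR adjusted p = 0.793 and 0.722). Without the libraries over 1 CPM of Pmch the female estimate was -0.12, and with 1 library left out it lay between 0.42 and 1.68, the higher value without control female 5. The male estimate was -0.25 with 1 surrogate variable and lay between -0.84 and -0.49 with 1 library left out. Among control females Col6a2 was likewise lowest in replicate 1, at 7.37 CPM, and highest in replicate 5, at 20.4 CPM. Its female minus male effect was 0.84 ± 0.35 (unadjusted p = 0.027, edgeR adjusted p = 0.587).

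The promoters of 4 collagen genes and of Aldh1a2 are given to show 1 match or more to each of the 4 motifs found, in genes described here with values per library. They were taken from RefSeq on GRCm38.p6, which held windows for 23 of the 33 genes. Shown are up to 250 bases before a start site, cut to the longest stretch outside the gene's own exons, 5′ to 3′ on the gene's strand, with matches to the searched motifs in capitals. Which promoters to show was decided after the matches were known.
Col6a1, chr10:76726169-76726294, minus strand: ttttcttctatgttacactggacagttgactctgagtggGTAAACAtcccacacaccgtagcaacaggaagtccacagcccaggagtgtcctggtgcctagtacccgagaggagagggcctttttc
Col6a2, chr10:76623631-76623880, minus strand: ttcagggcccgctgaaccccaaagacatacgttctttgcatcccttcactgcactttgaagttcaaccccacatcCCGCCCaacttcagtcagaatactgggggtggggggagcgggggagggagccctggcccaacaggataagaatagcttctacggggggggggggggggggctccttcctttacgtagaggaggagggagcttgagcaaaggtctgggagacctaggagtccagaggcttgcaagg
Col1a2, chr6:4505370-4505492, plus strand: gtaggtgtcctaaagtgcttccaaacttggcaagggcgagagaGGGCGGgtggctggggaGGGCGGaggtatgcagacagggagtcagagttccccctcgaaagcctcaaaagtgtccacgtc
Col3a1, chr1:45311288-45311537, plus strand: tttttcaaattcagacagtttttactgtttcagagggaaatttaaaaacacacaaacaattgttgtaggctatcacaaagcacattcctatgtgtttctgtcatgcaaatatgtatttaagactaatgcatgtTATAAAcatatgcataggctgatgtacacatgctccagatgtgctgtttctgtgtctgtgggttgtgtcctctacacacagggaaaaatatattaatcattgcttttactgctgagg
Aldh1a2, chr9:71215539-71215788, plus strand: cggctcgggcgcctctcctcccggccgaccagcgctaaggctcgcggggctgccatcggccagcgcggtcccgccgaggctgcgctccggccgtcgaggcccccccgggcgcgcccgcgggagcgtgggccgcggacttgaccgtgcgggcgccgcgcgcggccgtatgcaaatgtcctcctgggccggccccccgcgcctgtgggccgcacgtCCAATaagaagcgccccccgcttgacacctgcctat

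The search covered both strands of the 250 bases before each start, and none of the motifs contains another. The TATA box TATAAA lay in 3 of the 30 windows held by 23 of the 33 genes and in 12.3% of all 32536 windows, and in Col3a1 it is the stretch in capitals. The CCAAT box CCAAT lay in 26.7% and 33.8%, and is marked in Aldh1a2. A window of Col1a2 also held this motif, outside the stretch shown. The GC box GGGCGG, or CCGCCC on the other strand, lay in 46.7% and 32.97%, and is marked in Col1a2 and Col6a2. The forkhead letters TGTTTAC, read as GTAAACA on the other strand, lay in 3.33% and 3.17%, in Col6a1 alone among the 23 genes with a window. The SMAD palindrome GTCTAGAC lay in 0 of the 30 windows and in 0.169% of all, and the glucocorticoid response element, AGAACA and TGTTCT with 3 bases between them, in 0 of 30 and in 0.00922% of all. A match describes these letters only.

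The leucine-rich repeat genes encode small proteins and proteoglycans that bind collagen fibrils: decorin (Dcn), lumican (Lum), fibromodulin (Fmod), osteoglycin (Ogn), biglycan (Bgn) and Islr, a surface protein of mesenchymal cells with an immunoglobulin domain. Islr had the smallest p of the 33 genes in males. It had 6.08, 4.68, 5.63, 3.58 and 4.22 CPM in susceptible males, against 5.86, 7.65, 9.47, 7.52 and 10.04 CPM in control males (log2 fold change -0.74 ± 0.20, unadjusted p = 0.00156, edgeR adjusted p = 0.405). Susceptible male 1 alone lay above the lowest control, control male 1. In females it averaged 6.30 ± 1.22 CPM in susceptible and 7.42 ± 2.19 CPM in control mice (SD, n = 5 each; -0.24 ± 0.20). Islr shares 181 exon bases with Islr2 on the same strand, so its counts are uncertain to that extent. Fmod averaged 6.79 ± 3.44 CPM in susceptible and 13.8 ± 5.53 CPM in control males, with 22.3 CPM in control male 5, and 7.08 ± 2.19 against 10.2 ± 3.23 CPM in susceptible and control females. Bgn averaged 9.998 ± 0.926 CPM in susceptible males and 12.1 ± 1.79 CPM in control males, and Ogn 3.38 ± 1.77 against 5.46 ± 2.03 CPM. Dcn (0.12 ± 0.17) and Lum (0.18 ± 0.44), with the matrix protein gene Postn (0.43 ± 0.44), were the 3 of 33 with estimates above 0 in males, and each lay within 1 standard error of 0.

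Among the other matrix proteins, Emilin1 was the only one of the 33 genes whose groups did not overlap in males. Emilin1 encodes a glycoprotein of elastic fibres. It had 1.15, 1.58, 1.07, 1.24 and 1.38 CPM in susceptible males, against 2.07, 2.61, 2.08, 2.12 and 3.12 CPM in control males (-0.90 ± 0.25, unadjusted p = 0.00208, edgeR adjusted p = 0.405). Groups separated in this direction for 1 of 33 genes and for 0.994% of all genes tested, and upwards for 0 of 33 and 1.44%. In females it had 1.39, 1.99, 1.80, 1.17 and 1.80 CPM in susceptible mice and 1.93, 2.77, 3.85, 1.40 and 1.60 CPM in control mice (-0.50 ± 0.25, edgeR adjusted p = 0.774), and without the libraries over 1 CPM of Pmch the female estimate was 0.22. Over both sexes Emilin1 had the smallest p of the 33 (-0.70 ± 0.18, unadjusted p = 0.000848, edgeR adjusted p = 0.576). Its counts were low, 17 to 58 per library. Matrix Gla protein (Mgp), an inhibitor of calcification, averaged 5.003 ± 1.75 against 6.45 ± 2.12 CPM in susceptible and control males. The secreted collagen-binding protein gene Aebp1 averaged 14.0 ± 3.60 against 19.3 ± 4.22 CPM, and periostin (Postn) 7.80 ± 2.66 against 5.78 ± 0.556 CPM.

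**Figure D3:**
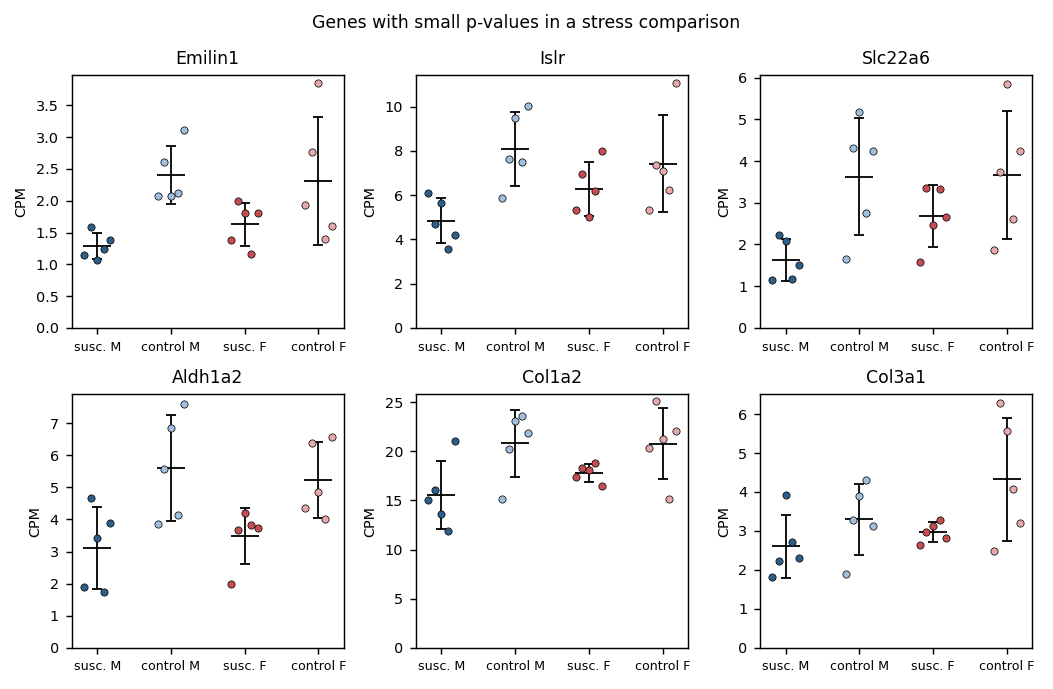
CPM of Emilin1, Islr, Slc22a6, Aldh1a2, Col1a2 and Col3a1 in each library of the 4 groups (points in replicate order), with the mean and SD of 5 libraries. Emilin1 reaches 1.58 CPM at most in susceptible males and 2.07 CPM at least in control males, while the other 5 genes overlap between susceptible and control mice of each sex.

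The solute carriers of the barrier between blood, meninges and cerebrospinal fluid had the lowest median of the larger roles over both sexes (-0.56), against -0.24 for collagens and -0.31 for leucine-rich repeat genes. Slc22a6, an organic anion transporter, had 1.15, 2.24, 2.09, 1.17 and 1.51 CPM in susceptible males, against 1.65, 4.31, 5.17, 2.75 and 4.24 CPM in control males (-1.14 ± 0.33, unadjusted p = 0.00264, edgeR adjusted p = 0.405). Control male 1 was the only control within the susceptible range. In females it averaged 2.68 ± 0.732 CPM in susceptible and 3.66 ± 1.53 CPM in control mice (SD, n = 5 each; -0.44 ± 0.32). The GABA transporter gene Slc6a13 averaged 4.63 ± 2.19 against 7.62 ± 1.55 CPM in susceptible and control males. Slc47a1, an exporter of organic cations, averaged 1.11 ± 0.474 against 2.46 ± 1.91 CPM, with 5.78 CPM in control male 3. Slc13a3, a dicarboxylate transporter, was among the least variable of the 33, with a highest value 2.26 times its lowest, and differed little, at 17.4 ± 1.96 against 18.2 ± 4.95 CPM in susceptible and control males and 17.0 ± 2.16 against 19.9 ± 2.60 CPM in susceptible and control females. Slc13a4, a sulfate transporter, and Slc6a20a, an imino acid transporter, were highest in the library with the most Ttr of each group, as described below.

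Aldh1a2 encodes the enzyme that makes retinoic acid in the meninges, and Crabp2 the protein that carries retinoic acid to its nuclear receptor. Aldh1a2 was the one gene of the 33 with an unadjusted p under 0.05 in each sex. In males it had 1.89, 4.68, 3.41, 1.73 and 3.89 CPM in susceptible mice, against 3.84, 5.59, 6.85, 4.13 and 7.61 CPM in control mice (-0.84 ± 0.28, edgeR adjusted p = 0.406). In females it had 1.98, 3.67, 4.21, 3.84 and 3.75 CPM in susceptible mice, against 4.36, 6.40, 4.84, 4.005 and 6.58 CPM in control mice (-0.58 ± 0.27, edgeR adjusted p = 0.774). In females only susceptible female 3 lay above the lowest control. Crabp2 averaged 1.28 ± 0.525 against 1.55 ± 0.737 CPM in susceptible and control males and 1.24 ± 0.519 against 1.28 ± 0.499 CPM in susceptible and control females. Of 16 other tested genes of the retinoic acid pathway, a list that holds Ttr, 0 were called in any stress comparison (edgeR). At an unadjusted p under 0.05, 4 were lower in males (5.03% of all genes), the receptors Rara (-0.43 ± 0.17) and Rarg (-0.45 ± 0.13), the retinol transporter Stra6 and the retinol dehydrogenase Rdh10, and 1 was higher in females (3.12% of all genes), Rdh10 (0.35 ± 0.11). For 7 of 16, Rdh10 among them, the female minus the male effect was above 0 at that threshold (4.64% of all genes).

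Ptgds makes prostaglandin D2 and is known from meninges, choroid plexus and also oligodendrocytes. It had 124, 265, 217, 181 and 282 CPM in susceptible males, against 214, 271, 288, 240 and 647 CPM in control males (-0.63 ± 0.26, edgeR adjusted p = 0.465), with the value of control male 5 standing apart. Without control male 5 the estimate was -0.24. In females it had 232, 239, 225, 268 and 176 CPM in susceptible mice, against 236, 357, 350, 254 and 308 CPM in control mice (-0.40 ± 0.26). Markers of oligodendrocytes had estimates above 0 in 12 of 12 in males and below 0 in 12 of 12 in females, with summed levels of 6116 to 8000 CPM in susceptible and 3827 to 7167 CPM in control males, and of 6189 to 8163 CPM in susceptible and 6197 to 10529 CPM in control females, and their part in the result was not tested. The complement inhibitor gene Serping1 averaged 4.35 ± 1.16 against 6.89 ± 1.77 CPM in susceptible and control males. The growth factor gene Igf2 averaged 1.15 ± 0.789 against 1.47 ± 0.669 CPM. It shares 3596 exon bases on the same strand with the annotated gene Gm49394, so its counts are uncertain. Nupr1, a stress-induced nuclear protein gene, had 1.42, 2.37, 2.72, 1.36 and 1.78 CPM in susceptible males and 2.84, 3.73, 2.59, 2.12 and 5.05 CPM in susceptible females (male over female -0.75 ± 0.35, unadjusted p = 0.0458, edgeR adjusted p = 0.774).

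The forkhead transcription factors Foxc1, Foxc2 and Foxd1 act in the development of the meninges in mice. Foxc1 had 3.85, 4.21, 5.88, 4.94 and 4.74 CPM in susceptible males, against 5.13, 7.10, 5.11, 5.22 and 7.92 CPM in control males (-0.37 ± 0.18, edgeR adjusted p = 0.531). Susceptible male 3 was the only one within the control range. In females it averaged 4.20 ± 0.761 against 4.59 ± 1.01 CPM in susceptible and control mice. Foxc2 averaged 0.378 ± 0.207 against 0.484 ± 0.430 CPM, and Foxd1 1.37 ± 0.238 against 1.47 ± 0.627 CPM, in susceptible and control males. Thbd encodes thrombomodulin, the receptor by which endothelium turns thrombin to an anticoagulant role. It had 4.998, 7.11, 7.77, 5.99 and 9.15 CPM in susceptible males, against 8.24, 9.23, 9.27, 8.61 and 11.8 CPM in control males (-0.43 ± 0.18, edgeR adjusted p = 0.481), and susceptible male 5 alone reached the control range.

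Fn1, fibronectin, was the 1 gene of the 33 that passed in edgeR, and it did so between control males and control females. There voom called 5 of the 33, Col6a1, Col6a2, Dcn, Fn1 and Foxd1, against 22.3% of all genes. Control males had 57.6, 71.6, 82.9, 51.3 and 57.9 CPM and control females 29.0, 32.3, 24.2, 24.9 and 38.5 CPM, with no overlap (log2 fold change of males over females 1.11 ± 0.21, edgeR adjusted p = 0.0288). Among control mice 0.511% of all genes were called, 0.289% higher in males, and groups separated upwards for 1 of 33 genes and 2.32% of all genes, and downwards for 0 of 33 and 1.57%. In susceptible mice the difference was smaller, with 53.0, 33.1, 54.4, 42.4 and 53.7 CPM in males and 21.8, 38.2, 26.8, 32.5 and 51.6 CPM in females (0.47 ± 0.20, unadjusted p = 0.0331, edgeR adjusted p = 0.774). The female minus the male stress effect of Fn1 was 0.64 ± 0.29 (unadjusted p = 0.0394, edgeR adjusted p = 0.587).

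The call of Fn1 between control males and females did not hold in every setting, though its log2 fold change stayed between 0.97 and 1.29. Its edgeR adjusted p was 0.0803, 0.0541, 0.0946 and 0.0721 without control females 1, 2, 3 and 4, and 0.0985 and 0.0654 without control males 2 and 3. With the Ttr-rich libraries left out it was 0.179, with the Pmch-rich ones left out 0.813, and with 1 surrogate variable 0.145. Endothelium also makes fibronectin, and 14 of 14 endothelial markers had estimates above 0 in control males over control females, of which Pecam1 (0.87 ± 0.14), Vwf (1.13 ± 0.24) and Ly6c1 (0.52 ± 0.12) passed in edgeR (adjusted p = 0.0109, 0.0459 and 0.0474). Their summed level was 236 to 435 CPM in control males and 222 to 256 CPM in control females, and their part in the result was not tested. In the male stress comparison 13 of 14 endothelial markers had estimates below 0, with 237 to 382 CPM in susceptible and 236 to 435 CPM in control males, and 3 of them, Cldn5, Vwf and Egfl7, were lower at an unadjusted p under 0.05, against 5.03% of all genes.

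The other genes of the 33 did not pass in edgeR between the sexes. Among control mice 21 of 33 estimates were above 0 (median 0.06), against 49.5% of all genes above and 50.5% below. This direction turned with single libraries: without control male 5, 21 of 33 were below 0 (median -0.05), without control female 1, 19 were (median -0.05), and without control female 4, 18 were (median -0.0091). With voom the median was -0.014. There were unadjusted p-values under 0.05 for Col6a2 and Foxc1 besides Fn1 on the higher side and for Dcn on the lower, 4 of 33 against 19.2% of all genes, 10.4% higher and 8.84% lower. Col6a2 had 16.1, 20.6, 26.1, 18.5 and 24.5 CPM in control males and 7.37, 13.8, 10.4, 14.7 and 20.4 CPM in control females (0.67 ± 0.25, unadjusted p = 0.0152, edgeR adjusted p = 0.178). Col6a1 stood at 1.19 ± 0.57 (edgeR adjusted p = 0.263). Dcn had 6.90, 7.95, 8.20, 7.97 and 9.42 CPM in control males and 9.13, 16.1, 15.0, 11.4 and 7.57 CPM in control females (-0.55 ± 0.17, unadjusted p = 0.00474, edgeR adjusted p = 0.126). Among susceptible mice 27 of 33 estimates of males over females were below 0 (median -0.19; 55.5% of all genes), 0 of the 33 passed (edgeR, 0.047% of all genes, 0.0403% higher and 0.00672% lower), and 3 of 33 had an unadjusted p under 0.05, against 6.28% of all genes, namely Fn1, higher in males, and Nupr1 and Slc22a6, lower in males. With DESeq2 and with voom 0 of the 33 were called there. The stress and sex comparisons share their control or susceptible libraries, so they are not independent of each other.

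**Figure D4:**
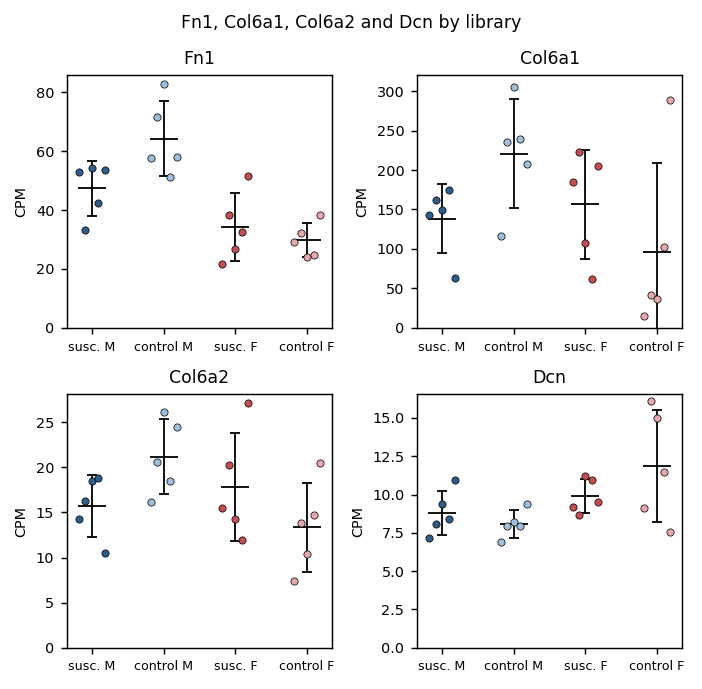
CPM of Fn1, Col6a1, Col6a2 and Dcn in each library of the 4 groups (points in replicate order), with the mean and SD of 5 libraries. Fn1 lies at 51.3 CPM or more in control males and at 38.5 CPM or less in control females, and Col6a1 of control females runs from 15.6 to 288 CPM.

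Some of the 33 genes varied together over the 20 libraries, with levels taken on a log2 scale. Of 5 relations chosen after the values were known, Col6a1 and Col6a2 had Pearson's r = 0.90 and Spearman's rho = 0.91 (permutation p = 2e-05 for each, the smallest that 100000 permutations can give; adjusted p = 5e-05 and 0.0001), r = 0.82 without the 2 libraries farthest from the median of Col6a1, and r = 0.87 after subtracting group means. These genes lie next to each other on chromosome 10 on the minus strand (Col6a2 from 76595762 to 76623630 and Col6a1 from 76708792 to 76726168, GRCm38), 85161 bases apart, with 0 protein-coding genes between them. Col6a1 also followed the mean log2 level of 12 striatal neuron markers (r = 0.86, permutation p = 2e-05, adjusted 5e-05). Spearman's rho was 0.73 (permutation p = 0.00026, adjusted 0.00065), and r was 0.78 without 2 libraries and 0.81 within groups. These markers summed to 1058 to 3378 CPM in susceptible and 1961 to 3881 CPM in control males, and to 1075 to 4909 CPM in susceptible and 359 to 2227 CPM in control females, and their part in the Col6a1 values was not tested. For Fn1 the relation to these markers did not pass (r = 0.40, permutation p = 0.0791, adjusted 0.0791). Its rho was 0.38 (permutation p = 0.0955, adjusted 0.0955), and r was 0.34 without 2 libraries and 0.19 within groups. Col1a1 and Col1a2, which lie on different chromosomes, had r = 0.78 (permutation p = 8e-05, adjusted 0.000133) and rho = 0.73 (p = 0.00062, adjusted 0.00103), and r = 0.65 without 2 libraries. Dcn and Lum, 46984 bases apart on chromosome 10, had r = 0.69 (permutation p = 0.00238, adjusted 0.00297) but rho = 0.42 (p = 0.0686, adjusted 0.0857), and r = 0.37 without 2 libraries, so the pooled relation rested on those libraries. After subtracting group means r was 0.75.

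Single libraries carried many of the 33 genes up or down together. Control male 5 was the highest of its group for 18 of the 33, against 27.3% of all genes, and control male 1 the lowest for 21 of 33, against 22.1%. Susceptible male 4 was the lowest of its group for 14 of 33, against 14.4% of all genes. Among control females, replicate 3 was the highest for 14 of 33 (14.1% of all genes) and replicate 1 the lowest for 21 of 33 (23.7%). The mean log2 CPM of the 33 genes was 2.19, 2.66, 2.69, 2.12 and 2.64 in susceptible males and 2.54, 2.94, 3.13, 2.73 and 3.28 in control males. It was 2.58, 2.89, 2.63, 2.66 and 2.68 in susceptible females and 2.36, 3.11, 3.12, 2.68 and 3.02 in control females. Control male 1 was thus the only male control within the range of the susceptible males. These means describe the list, and no test was made of them.

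Slc13a4, Slc6a20a and Igf2 were each highest, in all 4 groups, in the library with the most Ttr, which held for 9.09% of the 33 genes and 1.10% of all genes tested. Slc13a4 had 15.0 CPM in susceptible male 5 and 17.0 CPM in control male 5, which had 1407 and 1684 CPM of Ttr, and 17.4 CPM in susceptible female 3 and 25.3 CPM in control female 3, with 2001 and 1948 CPM of Ttr. In the other libraries of each group it ranged from 1.54 to 6.76 CPM in susceptible males, 4.27 to 10.1 CPM in control males, 5.51 to 6.86 CPM in susceptible females and 4.82 to 21.4 CPM in control females. The 16 listed markers of choroid plexus epithelium were all detected, with Slc4a5 at 0 in at least 1 library, and their sum ran from 267 to 2852 CPM in susceptible and 212 to 3007 CPM in control males, and from 280 to 3739 CPM in susceptible and 240 to 3801 CPM in control females. Their part in the results for these 3 genes was not tested.

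**Figure D5:**
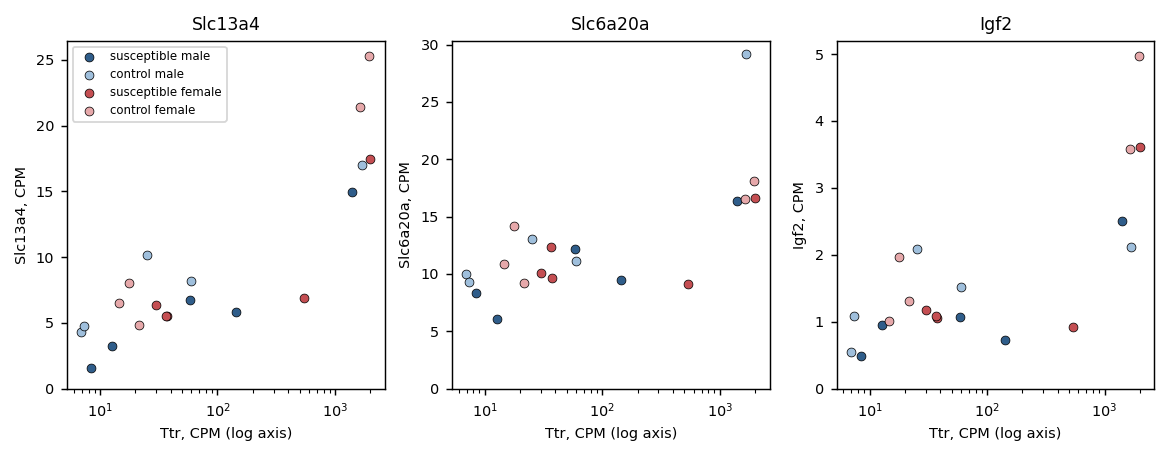
CPM of Slc13a4, Slc6a20a and Igf2 in each of the 20 libraries against CPM of Ttr on a log axis, coloured by group. The 5 libraries with the most Ttr hold the highest Slc13a4 values, 15.0 to 25.3 CPM, and the remaining 15 lie at 10.1 CPM or below.

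Genes that work with the 33 were listed by pathway. Of 29 tested genes of collagen processing (hydroxylases, cross-linking enzymes and proteinases), 0 passed in either stress comparison (edgeR), and the procollagen C-proteinase Bmp1 (-0.38 ± 0.11) and the prolyl hydroxylase P3h1 (-0.29 ± 0.10) had the smallest p-values in males (edgeR adjusted p = 0.405 and 0.435). At an unadjusted p under 0.05, 3 were lower and 1 higher in males, where 5.03% of all genes were lower and 4.64% higher, and 3 were lower in females, where 2.73% of all genes were. The same shares of all genes, with 3.12% higher in females, stand against the counts at that p in the other lists below. Counts of directions stand against 52.5% of all genes with estimates below 0 in males and 48.4% in females. Of 21 other collagens, 1 was lower in males, Col7a1, and 3 were lower in females, the basement membrane collagens Col4a1 and Col4a2 (-0.30 ± 0.10) and Col6a6 (-0.53 ± 0.19), by the same threshold, and 19 of 21 estimates were below 0 in females and 11 of 21 in males. Of 19 genes of TGF-beta signalling, the main inducer of matrix genes in fibroblasts, 16 had estimates below 0 in males (median -0.12) and 8 in females (median 0.06), with 1 lower in males, the co-receptor Eng (-0.37 ± 0.17), and 2 lower in females, Smad7 and Ltbp3, at an unadjusted p under 0.05.

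Of the 27 other meningeal and fibroblast markers tested, 19 had estimates below 0 in males (median -0.23) and 21 in females (median -0.15), and 0 passed (edgeR). Pdgfrb, Vtn, Ccn3, Cdh1 and Slc26a7 were lower at an unadjusted p under 0.05 in males, with Pdgfrb, a receptor of pericytes and fibroblasts, at -0.51 ± 0.16, and Lama1 was lower and Foxp1 higher in females. Summed over all 35 listed markers, tested or not, the level was 620 to 840 CPM in susceptible and 711 to 811 CPM in control males. In susceptible females it was 679 to 967 CPM and in control females 715 to 853 CPM. This sum includes Foxp1 and Pdgfra, with means of 125 and 82.7 CPM over all libraries, and which cells made these RNAs was not tested. Mural cell markers had estimates below 0 for 7 of 10 in each sex. Markers of red cells were below 0 in 5 of 5 in both sexes, those of astrocytes in 5 of 10 in males and 8 of 10 in females, those of microglia and macrophages in 5 of 11 and 4 of 11, and those of ependyma in 5 of 8 and 3 of 8. The 16 markers of choroid plexus epithelium had a median of 0.19 in males and -0.43 in females. None of them passed (edgeR, smallest adjusted p = 0.639 and 0.850), and their part in the result was not tested.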

How the data were processed

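Polyadenylated RNA of the mouse BNST was sequenced as paired reads in 20 libraries, and the authors deposited 1 table of raw read counts per gene for each library. The submitters' processing notes name HISAT2, featureCounts and mm10. The sources used here do not state versions, annotation or strand setting, and reads of overlapping genes cannot be separated. Of 19214 identifiers, 19180 matched GENCODE release 21. Within each group, all pairs of libraries differed by more than sampling noise. Counts of 2 to 10373 per gene and library set the precision for the 33 genes.

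Groups came from the titles. Counts were scaled by TMM, filtered with filterByExpr and fitted over 20 libraries, 1 mean per group, by edgeR 4.0.16 (robust quasi-likelihood) under R 4.3.3, with Benjamini-Hochberg adjustment over 14884 genes and a threshold of 0.05. Each standard error is the size of the log2 fold change divided by sqrt(F). RPKM used GENCODE exon lengths. The 33 genes and all lists were chosen with earlier results of these data known. By rule, values per library were due for each role's gene with the highest mean CPM and the 3 smallest p-values of each comparison. Bgn and Slc13a3 met this rule but are given as group means. Col1a2 was added after its values were seen. Alternatives were DESeq2 1.42.0, limma 3.58.1 voom with quality weights, sva 3.50.0, other filters and scaling, a replicate block and left-out libraries. Offsets for GC content and length, the robust form of voom, the striatal markers, the relations between genes and the ranks of libraries were chosen after seeing the data. The code was tested on simulated data.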

Additional observations from a re-analysis of the deposited data

Results flagged for a closer look

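Of 132 sets of 5 libraries (33 genes in 4 groups), 11 held a library whose gap to its nearest neighbour was above 0.71 of the group's range, Dixon's limit for 5 values, where chance gives 6.6. Control male 5 was high for Ptgds (647 CPM), Slc6a20a (29.2 CPM) and Foxc2 (1.25 CPM), and control male 3 for Slc47a1 (5.78 CPM). Susceptible male 5 was high for Lum (2.63 CPM) and Igf2 (2.5 CPM) and low for Col6a1 (63 CPM). Susceptible female 3 was high for Igf2 (3.61 CPM) and Slc13a4 (17.4 CPM), susceptible female 5 low for Mgp (4.61 CPM) and susceptible female 1 low for Aldh1a2 (1.98 CPM). Of these libraries, control male 5, susceptible male 5, susceptible female 1 and susceptible female 3 had over 100 CPM of Ttr, and what sets the values apart was not tested.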

How the results depend on the processing

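Of 780 fold changes of named genes under alternatives, 752 kept their direction and their side of the threshold. In males, limma voom with quality weights called 10 of the 33 genes (of 689 genes called in all), its robust form, which was run first, the same number (of 723), and the form with the GC and length trend removed 0. Among control males over control females, voom called 5 in both forms (of 3324 and 3333), and 1 surrogate variable, leaving out the libraries over 100 CPM of Ttr and leaving out those over 1 CPM of Pmch gave 0. Leaving out 1 library gave 0 to 3 there, 3 without control female 5 (Col6a1, Dcn and Fn1). The other counts of the 33 genes called stayed at 0 in all alternatives run. In females the direction turned for Emilin1 (0.22) and Col6a1 (-0.12) without the Pmch libraries and for Foxc1 (0.11) without the Ttr libraries, and Bgn lay between -0.12 and 0.21 without 1 library. In males Slc13a3 stood at 0.039 with GC and length offsets, 0.067 in voom with that trend removed, and between -0.21 and 0.048 without 1 library, the last without control male 2. The cause was not tested.

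With the replicate number as a block, 0 of the 33 genes were called in the stress comparisons and 1, Fn1, between control males and females (edgeR adjusted p = 0.0301), as without it. In log2 CPM minus the group mean, susceptible and control libraries that share a number correlated between -0.44 and 0.64 in females and 0.02 and 0.25 in males. Among susceptible libraries, only susceptible female 5 and susceptible male 4 correlated best with the control of their own sex and number. This check cannot show whether libraries of 1 number were handled together, and the titles give only group and number. Depth limits Foxc2, Crabp2, Foxd1, Igf2, Lum and Slc47a1, which had fewer than 10 counts in at least 1 library.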
